A study of Drosophila melanogaster with 6 samples.

Results

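The Dpr and DIP genes encode immunoglobulin-type proteins of the neuronal cell surface. They were compared between antennae of control *Drosophila melanogaster* females and of females in which *Eip93F* (E93), an ecdysone-induced transcription factor, was targeted by RNA interference. The members are all genes whose FlyBase symbol begins with dpr and a digit, or with DIP and a hyphen. The rule uses names and no measured value, although the members were chosen with earlier results of these data known. It found 32 of the 17698 genes listed in the counts, 21 dpr genes and 11 DIP genes. Each group holds 3 biological replicates of poly(A)-selected RNA from antennae of flies aged 2 to 5 days, with 350 females of each genotype reared side by side at 25 °C for each pair of replicates. Both groups carry *peb*-Gal4, which drives transgenes in olfactory receptor neurons from their development on, and UAS-Dcr2, which strengthens RNA interference, as heterozygotes. The treatment text assigns the hairpin UAS-E93KK108140 to the control and VIE-260B to E93RNAi, the reverse of the sample titles and of the descriptions, which name the controls VDRC60100. The titles were followed.

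Dpr proteins (named for a defective proboscis extension response, found for *dpr1* in salt avoidance) bind DIPs (Dpr-interacting proteins) on facing cells. Each Dpr binds a limited set of DIPs, and neuron classes express different combinations of both. In the visual system, at the neuromuscular junction and in the mushroom body, matching pairs help neurons find or keep their partners. In the olfactory system, receptor neuron classes carry distinct combinations, and these help axons of a class to sort into one glomerulus of the antennal lobe. The antenna holds the cell bodies of these neurons, and the brain neurons they contact are not in the sample.

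Total gene counts were 16639918 to 18400979 reads per sample, at which 3 counts correspond to 0.163 to 0.182 CPM (counts scaled to the TMM-adjusted size of the library). Such a floor covers counting error only. *Eip93F* itself had a log2 fold change (E93RNAi over control) of -0.19 ± 0.048 (SE; adjusted p = 0.0119 in edgeR's quasi-likelihood test), and its adjusted p was 0.0564 without control replicate 2 and 0.0552 without E93RNAi replicate 3. Marker lists were read beside the members. *Orco*, the co-receptor of most antennal olfactory neurons, was at 3314 CPM in control and fell by 0.20 on the log2 scale (edgeR adjusted p = 0.00357). The other 7 neuronal markers did not pass the threshold. The summed level of all 8 was 6638.5 to 7005.1 CPM in control and 6028.8 to 6442.8 CPM in E93RNAi. *Orco* alone gave 3273.1 to 3374.6 CPM of this sum in control and 2861.4 to 2934.3 CPM in E93RNAi, so the sum mostly follows that gene. All 7 tested glial markers rose, with a median log2 fold change of 0.44, and the list summed to 748.0 to 796.7 CPM in control and 941.1 to 1119.2 CPM in E93RNAi. The glial gene *alrm* was near the floor, with 0 to 2 counts in control and 1 to 5 in E93RNAi. All 4 tested muscle markers rose, from a summed 30.2 to 35.0 CPM to 41.7 to 65.3 CPM, led by E93RNAi replicates 1 and 3 (*Mhc* at 205 and 222 counts, against 22 in replicate 2 and 11 to 42 in control). The call for *Mhc* was lost without control replicate 2, control replicate 3 or E93RNAi replicate 3 (adjusted p = 0.0571, 0.0586 and 0.0695), and with DESeq2 (0.0840) and limma voom (0.201). That for *bt* was lost in 5 of the 6 fits without a sample, all but the one without E93RNAi replicate 2, and with DESeq2 (0.0925) and limma voom (0.0945). The calls for *dila*, from the list of Johnston's organ neurons, and *Pdk1*, from the support-cell list, were also lost under some alternatives. Both genes fell. How specific each listed gene is to its cell type was not tested. Of the 8 support-cell markers 4 rose and 2 fell. The largest of these shifts was the rise of *nompA* (log2 fold change 3.23, edgeR adjusted p = 3.11e-11). This gene averaged 7.29 CPM over the controls and 68.4 CPM over the E93RNAi samples. With the replicate number as a block 5 markers rose and 3 fell, which added *Obp83b* (log2 fold change 0.14, adjusted p = 0.0163) and *Obp19a* (-0.14, 0.0205). Of 5 tested genes in the list of Johnston's organ neurons, *nompC* rose from 7.87 to 51.4 CPM on average (log2 fold change 2.70, edgeR adjusted p = 1.55e-09). In the same list *dila* fell, and *iav*, *btv* and *Cby* did not pass. *iav* had only 17 to 51 counts per sample, and *nan*, at 2 to 10 counts, was not tested. None of 5 tested fat body and haemocyte markers passed the threshold. The part of these shifts in the results on Dpr and DIP genes was not tested. In whole antennae, fewer cells of a type and less RNA per cell cannot be told apart.

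**Figure D1:**
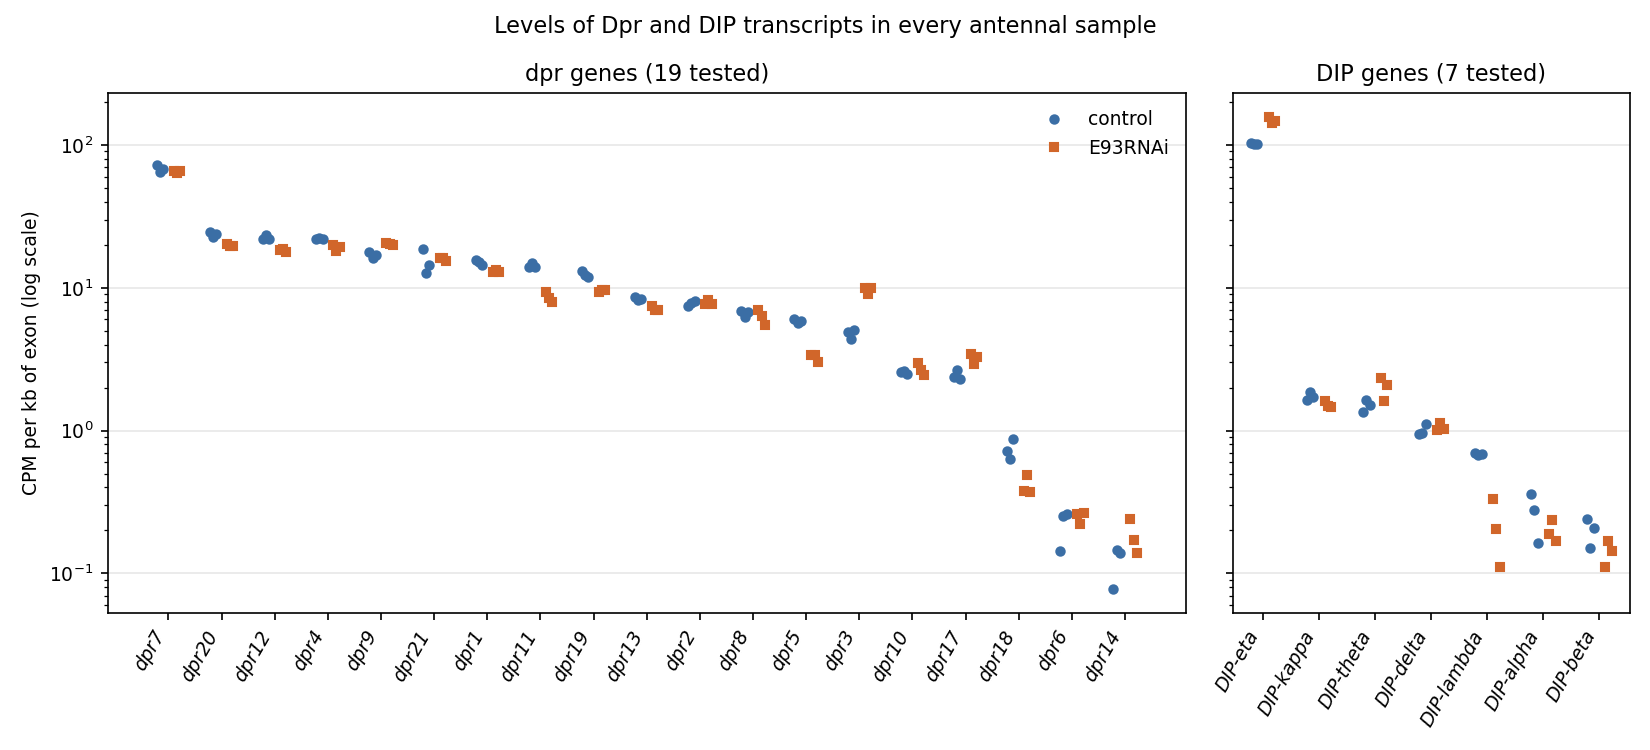
Level of each tested Dpr and DIP gene in CPM per kb of exon (log scale) in the 3 control samples (circles) and 3 E93RNAi samples (squares), ordered by control level. *dpr7* leads the dpr genes and *DIP-eta* stands above the other DIP genes at 102.0 CPM per kb in control and 149.1 in E93RNAi.

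The antenna expressed most dpr genes, while *DIP-eta* held most of the summed DIP level. Of the 11 DIP genes, 7 had enough counts to be tested. In whole antennae a low level does not tell how many cells express a gene. Levels between genes are given as CPM per kb of exon, where the length is that of all annotated exons of a gene merged. The transcripts present may be shorter, so ranks and ratios between genes on this scale are approximate. In control, *DIP-eta* was at 102.0 ± 0.746 CPM per kb and made up 94.7% to 95.1% of the summed DIP level on that scale. The next DIP gene, *DIP-kappa*, was at 1.74 ± 0.102 CPM per kb, followed by *DIP-theta* at 1.49 ± 0.138 and *DIP-delta* at 1.01 ± 0.0867 (all mean ± SD, n = 3). The control samples of these 3 genes did not overlap on that scale. *DIP-lambda*, *DIP-alpha* and *DIP-beta* were at 0.685, 0.268 and 0.200 CPM per kb, and the samples of *DIP-alpha* and *DIP-beta* overlapped. The other 4, *DIP-epsilon*, *DIP-gamma*, *DIP-iota* and *DIP-zeta*, had at most 4 counts in any control sample.

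The dpr family was spread more evenly. *dpr7* led at 68.3 ± 4.32 CPM per kb in control (SD, n = 3), 26.4% to 28.0% of the summed dpr level. *dpr20*, *dpr12* and *dpr4* followed at 23.6 ± 0.985, 22.5 ± 0.809 and 22.1 ± 0.224 CPM per kb. The control samples of *dpr12* overlapped those of both others, while every *dpr20* control was above every *dpr4* control. *dpr9*, *dpr21*, *dpr1*, *dpr11* and *dpr19* were between 12.5 and 17.0 CPM per kb, and *dpr21* varied most among these (12.7 to 18.5 CPM in control). *dpr13*, *dpr2*, *dpr8*, *dpr5*, *dpr3*, *dpr10* and *dpr17* were between 2.44 and 8.36 CPM per kb. *dpr18*, *dpr6* and *dpr14* were below 1 CPM per kb, and *dpr15* and *dpr16* had 1 to 4 counts in every sample. The summed dpr level was 715.4 to 741.0 CPM in control and 654.7 to 679.7 CPM in E93RNAi, and the summed DIP level was 324.2 to 328.8 CPM and 448.1 to 489.9 CPM. The control and E93RNAi samples did not overlap in either sum, which was lower in E93RNAi for the dpr genes and higher for the DIPs. On average the DIP sum rose by 139.8 CPM and *DIP-eta* alone by 140.5 CPM. The higher DIP sum is thus the rise of *DIP-eta* and not a rise across the family.

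Between the groups, the dpr genes that changed mostly fell, while *DIP-eta* rose. Of the 32 members, 26 had enough counts to be tested, and 14 of these passed an adjusted p of 0.05 in edgeR's quasi-likelihood test over all genes, or 53.8%, against 24.3% of all 9237 tested genes. Among the dpr genes 3 rose, 9 fell and 7 did not pass. Among the DIPs 1 rose, 1 fell and 5 did not pass. Over both families 15.4% of the tested members rose and 38.5% fell, where 13.8% of all tested genes rose and 10.5% fell. The median log2 fold change of the tested members was -0.13, and that of all tested genes was 0.000278. Groups did not overlap for 15 tested members, or 57.7%, against 37.5% of all tested genes. Of the 14 changes, *dpr3* and *DIP-lambda* reached 1 or more on the log2 scale.

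**Figure D2:**
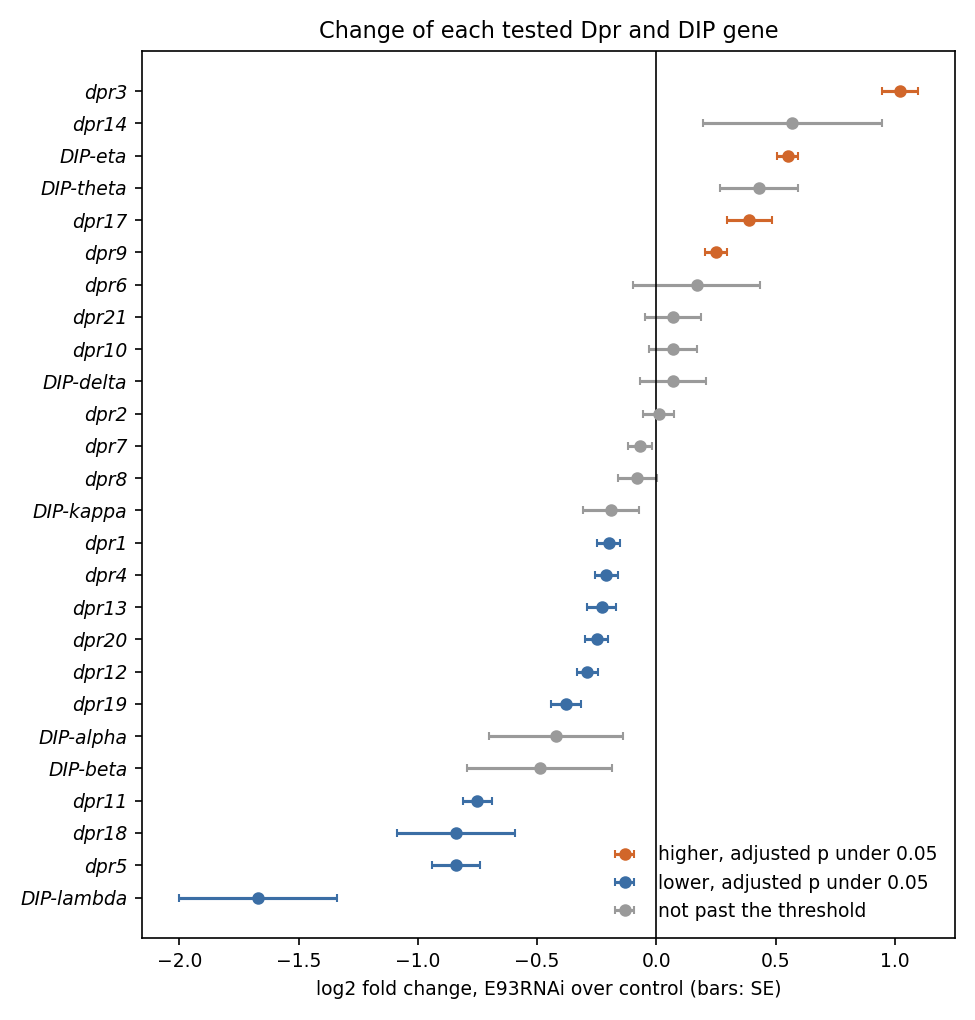
Log2 fold change (E93RNAi over control) of the 26 tested Dpr and DIP genes with its SE, coloured by call at an adjusted p of 0.05. *dpr3* had the highest value (1.02) and *DIP-lambda* the lowest (-1.67), and the 6 smallest falls that passed lay between -0.20 and -0.38.

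*DIP-eta* (FBgn0031725, 2L:5601723-5617946, minus strand, BDGP6) was the most abundant member and rose. It was at 307.4, 304.2 and 303.1 CPM in control replicates 1 to 3 and at 468.1, 427.8 and 440.2 CPM in E93RNAi replicates 1 to 3. The controls lay within a few CPM of each other, and every E93RNAi sample was far above them. The log2 fold change was 0.55 ± 0.045 (SE) at an edgeR adjusted p of 2.05e-06, which is 146% of the control mean. *DIP-theta* lies 8344 bases from it on the same strand. It was at 3.89, 4.69 and 4.33 CPM in control and 6.73, 4.64 and 6.02 CPM in E93RNAi, and the groups overlapped through E93RNAi replicate 2. Its log2 fold change of 0.43 ± 0.16 (SE) had an adjusted p of 0.0829, and 0.0240 without that sample (log2 fold change 0.56, edgeR). *DIP-theta* shares 363 bases of exon with *lncRNA:CR44822*, which had at most 4 counts in any sample.

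*DIP-lambda* (FBgn0267428, 2R:326768-705848, plus strand), a DIP gene that spans 379081 bases, fell from a low level. It had 28, 29 and 31 counts in the controls and 14, 9 and 5 in the E93RNAi samples. The controls were nearly equal, and the E93RNAi samples were all lower but spread widely. The log2 fold change was -1.67 ± 0.33 (SE) at an edgeR adjusted p of 0.00258, with a 95% interval of -2.39 to -0.94.

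*dpr3* (FBgn0053516, 2L:2058790-2109878, minus strand) showed the largest rise of the tested members. It was at 15.5, 13.9 and 15.9 CPM in control and 31.7, 28.4 and 31.4 CPM in E93RNAi. All E93RNAi samples were far above the controls, at 202% of the control mean. The log2 fold change was 1.02 ± 0.076 (SE) at an edgeR adjusted p of 9.08e-07. *dpr17* (FBgn0051361) rose from 10.6, 11.9 and 10.2 CPM to 15.3, 13.1 and 14.7 CPM, a log2 fold change of 0.39 ± 0.096 (SE) at an edgeR adjusted p of 0.00905. *dpr9* (FBgn0038282) rose from 85.3, 78.1 and 82.2 CPM to 98.7, 98.2 and 96.1 CPM, a log2 fold change of 0.25 ± 0.045 (SE) at an edgeR adjusted p of 0.00110. For both genes every E93RNAi sample was above every control sample.

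The largest dpr falls were those of *dpr5*, *dpr18* and *dpr11*. *dpr11* (FBgn0053202, 3R:6529169-6593330, minus strand), known with *DIP-gamma* from the pairing of photoreceptors with their medulla targets and from the neuromuscular junction, was at 65.5, 69.8 and 65.5 CPM in control and 43.2, 39.6 and 36.9 CPM in E93RNAi. This is 59.6% of the control mean, with a log2 fold change of -0.75 ± 0.060 (SE) at an edgeR adjusted p of 1.72e-06. *dpr5* (FBgn0037908, 3R:11499984-11505951, plus strand) was at 11.3, 10.6 and 10.9 CPM in control and 6.32, 6.31 and 5.64 CPM in E93RNAi. All E93RNAi samples were well under the lowest control, with a log2 fold change of -0.84 ± 0.10 (SE) at an edgeR adjusted p of 6.13e-05. *dpr18* (FBgn0030723) had 31, 29 and 42 counts in the controls and 17, 23 and 18 in the E93RNAi samples, a log2 fold change of -0.84 ± 0.25 (SE) at an edgeR adjusted p of 0.0258. Its call was lost without control replicate 1 (adjusted p = 0.0535), control replicate 3 (0.138), E93RNAi replicate 1 (0.0657) or E93RNAi replicate 3 (0.0933), and with DESeq2 (0.0940).

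The other 6 falls were small and lay among well-expressed genes. *dpr12* (FBgn0085414, 2R:5804712-5860831, plus strand), known with *DIP-delta* from the regrowth of mushroom body axons, went from 103.4, 110.2 and 103.9 CPM in control to 86.1, 88.6 and 84.4 CPM in E93RNAi. Its log2 fold change was -0.29 ± 0.044 (SE) at an edgeR adjusted p of 0.000340. *dpr19* fell by 0.38, *dpr20* by 0.25, *dpr13* by 0.23, *dpr4* by 0.21 and *dpr1* by 0.20 on the log2 scale (edgeR adjusted p = 0.000683, 0.00175, 0.0162, 0.00723 and 0.00925). In each of these genes all 3 E93RNAi samples were below all 3 controls. *dpr1*, the founding member, was at 51.8 to 55.9 CPM in control and 46.3 to 48.0 CPM in E93RNAi. *Orco* fell by 0.20 in the same fit, and its part in these falls was not tested. The call for *dpr13* was lost without E93RNAi replicate 2 (adjusted p = 0.0575), without E93RNAi replicate 3 (0.0606) and with DESeq2 (0.0655). *dpr4* shares 469 bases of exon with an antisense RNA gene, *asRNA:CR45056*, which had at most 1 count in any sample.

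For 7 tested dpr genes no change passed the threshold. *dpr7*, the most abundant of them, was at 97.3 to 110.3 CPM in control and 96.5 to 100.2 CPM in E93RNAi, and the 95% interval of its log2 fold change was -0.18 to 0.04. The interval was -0.14 to 0.15 for *dpr2*, -0.26 to 0.10 for *dpr8*, -0.15 to 0.30 for *dpr10* and -0.19 to 0.32 for *dpr21*. A change of the size seen for *dpr3* or *dpr11* lies outside these intervals. The intervals were wide for the low genes *dpr6* (-0.41 to 0.75) and *dpr14* (-0.25 to 1.39), as they were for *DIP-alpha* (-1.04 to 0.19) and *DIP-beta* (-1.16 to 0.17). For *DIP-delta* the interval was -0.23 to 0.37, and for *DIP-kappa*, whose groups did not overlap (6.57 to 7.37 CPM in control, 5.86 to 6.44 CPM in E93RNAi), it was -0.45 to 0.06.

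The other 6 members were too low to test. *DIP-gamma* was at 0 in all controls and had 3, 2 and 3 counts in E93RNAi, all at or under the floor of 3 counts, so no fold is given. *DIP-iota* had 0, 3 and 4 counts in the controls and 5, 7 and 8 after E93 knockdown. *DIP-epsilon* had 3, 3 and 1 counts and then 2, 4 and 8, and *DIP-zeta* had at most 2 counts in any sample. *dpr15* had 1 to 4 counts and *dpr16* 1 to 4 counts across the samples. In a fit without the filter none of these 6 passed the threshold, and the lowest adjusted p was 0.0544 for *DIP-gamma* (edgeR).

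Some known binding partners were compared next, for 11 pairs among *DIP-alpha*, *DIP-beta*, *DIP-gamma* and *DIP-delta*. The list is partial and holds no pair of the other DIP genes, *DIP-lambda* among them. In 7 pairs both partners were tested. The balance of a pair is given as the log2 ratio of the dpr over the DIP level, both in CPM per kb. With 3 samples against 3 the exact permutation test cannot go below 0.1, so it says nothing about a threshold of 0.05, and the ratios are described by their values and by whether the groups overlap. The 3 pairs whose groups did not overlap reached that minimum (two-sided, adjusted p = 0.233 over 7 pairs). A lack of overlap was common in these data, at 37.5% of all tested genes taken singly. Ratios that share a partner are not independent.

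*DIP-alpha* and its partners *dpr6* and *dpr10* are known from motor neurons and the optic lobe. *DIP-alpha* and *dpr6* were low in the antenna and *dpr10* was higher, and none of the 3 genes passed the threshold. The *dpr10* over *DIP-alpha* ratio was 2.84, 3.22 and 3.93 in control and 3.97, 3.50 and 3.86 in E93RNAi, with overlapping groups. The *dpr6* over *DIP-alpha* ratio varied widely between control samples, from -1.31 to 0.66, and was -0.09 to 0.66 in E93RNAi. *dpr6* and *dpr10* are neighbours 8093 bases apart on 3L, yet in control their levels were 0.219 ± 0.065 and 2.56 ± 0.0545 CPM per kb (SD, n = 3).

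*DIP-beta* was scarce, and so was its partner *dpr6*, while its partners *dpr8*, *dpr9* and *dpr21* were at 6.63, 17.0 and 15.2 CPM per kb in control. The *dpr6* over *DIP-beta* ratio was -0.74, 0.74 and 0.33 in control and 1.23, 0.39 and 0.89 in E93RNAi, with overlapping groups. The *dpr9* over *DIP-beta* ratio was 6.19, 6.74 and 6.36 in control and 7.53, 6.91 and 7.11 in E93RNAi, higher in every E93RNAi sample by 0.75 on average. The *dpr21* ratio was also higher in every E93RNAi sample, by 0.58 on average, although neither *dpr21* nor *DIP-beta* passed the threshold itself. The *dpr8* ratio overlapped between groups, at 4.82 to 5.37 in control and 5.22 to 5.99 in E93RNAi. *DIP-beta*, the denominator of all 4 ratios, had only 10 to 21 counts per sample.

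*DIP-delta* was far lower than its partner *dpr12*, and of the pair only *dpr12* passed the threshold. Their ratio was 4.53, 4.60 and 4.32 in control and 4.18, 4.06 and 4.13 in E93RNAi. It was lower in every E93RNAi sample, with a difference of -0.36. *DIP-gamma*, at or under the floor in every sample, gave no ratio. Its partners did not move together, as *dpr11* fell, *dpr17* rose, and *dpr15* and *dpr16* were near the floor. *dpr15* and *dpr17* lie 27412 bases apart on 3R, and of this neighbouring pair only *dpr17* was expressed above a few counts.

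**Figure D3:**
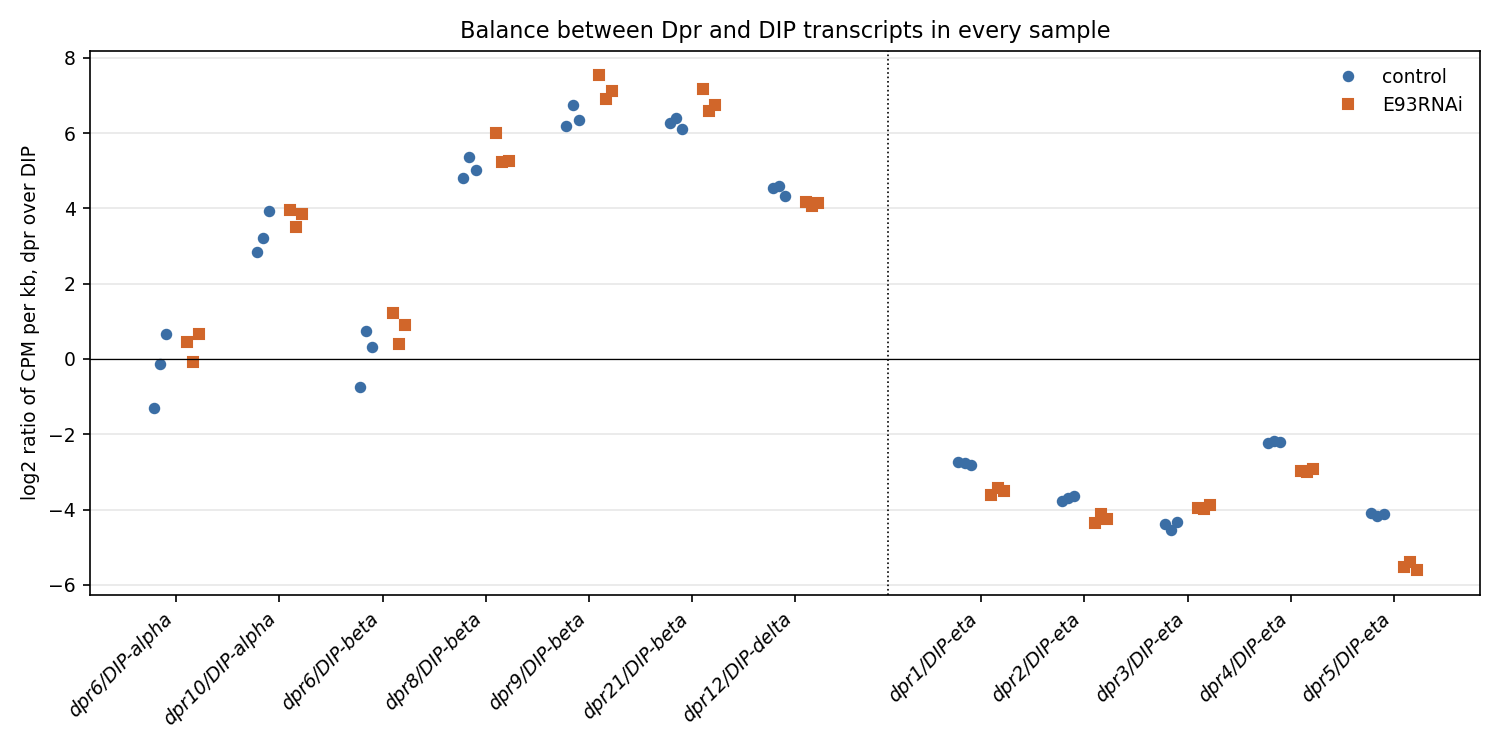
Log2 ratio of dpr over DIP level (CPM per kb) in each control sample (circles) and E93RNAi sample (squares), for the 7 listed pairs (left of the dotted line) and for *dpr1* to *dpr5* against *DIP-eta* (right). The *DIP-beta* and *DIP-delta* partners lie above 4 except *dpr6*, and all *DIP-eta* ratios lie below -2.

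*DIP-eta* and the *dpr1* to *dpr5* group were compared after the values had been seen, because *DIP-eta* held most of the DIP signal. *DIP-eta*, *DIP-theta* and *DIP-iota* are known to bind members of this group of related Dprs, although not every combination need bind. While *DIP-eta* rose, *dpr3* rose, *dpr1*, *dpr4* and *dpr5* fell, and *dpr2* did not pass, at 22.7 to 24.5 CPM in control and 23.2 to 24.9 CPM in E93RNAi. The *dpr5* over *DIP-eta* ratio went from -4.09, -4.16 and -4.12 in control to -5.53, -5.40 and -5.61 in E93RNAi, a difference of -1.39. The differences were -0.76 for *dpr4*, -0.75 for *dpr1* and -0.54 for *dpr2*. Only the *dpr3* ratio was higher in E93RNAi, at -4.39, -4.53 and -4.33 in control and -3.97, -3.99 and -3.89 in E93RNAi, a difference of 0.47. All 5 ratios share *DIP-eta*, whose rise of 0.55 enters each difference with its sign reversed, as the value for *dpr2* shows, so they are given as a description with no test. *dpr4* and *dpr5* are neighbours 27531 bases apart on 3R and both fell, by 0.21 and 0.84 on the log2 scale.

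Other cell-surface genes were read beside the members. The Beat and Side proteins are another immunoglobulin family whose members bind each other across cells and guide axons. Of 22 beat and side genes 17 were tested, and 5 rose, 6 fell and 6 did not pass, with a median log2 fold change of -0.11. The share changed was 64.7%, against 53.8% of the tested Dpr and DIP genes and 24.3% of all tested genes. A high share was thus not particular to the Dpr and DIP genes. *side* (0.67), *beat-IIIb* (0.57) and *side-IV* (0.32) had the largest rises, and *side-III* (-0.65), *beat-IV* (-0.64) and *beat-Ia* (-0.49) the largest falls, given as log2 values, and none had an edgeR adjusted p above 0.0084. For *side-IV* the adjusted p was 0.0510 without control replicate 3, and the calls for *beat-IIIc*, *beat-VII* and *side-VIII* were also lost under some alternatives. Of 20 tested genes in a list of other surface proteins, immunoglobulin-type but for the secreted *cDIP*, 4 rose, 6 fell and 10 did not pass, with a median of -0.08. *Dscam2* fell by 1.43, *Dscam4* by 1.25 and *Dscam3* by 0.52 on the log2 scale (edgeR adjusted p = 1.33e-07, 0.00338 and 0.0148). They are paralogs of *Dscam1*, a homophilic receptor of axons and dendrites. The *Dscam3* call was lost without control replicate 2 (adjusted p = 0.0643), control replicate 3 (0.0679) or E93RNAi replicate 2 (0.0569), and those for *CG7166* and *rst* were lost when some single samples were left out. *sns* did not pass, but did with the replicate block (log2 fold change 0.31, adjusted p = 0.00441). The rises were led by *wrapper*, a glial surface protein that is also in the glial list (2.19), *bdl* (0.33) and *Fas3* (0.25). *cDIP*, a secreted protein that binds many Dprs and DIPs, was at 342 CPM in control and 316 CPM in E93RNAi and did not pass (log2 fold change -0.11, adjusted p = 0.0781, edgeR).

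**Figure D4:**
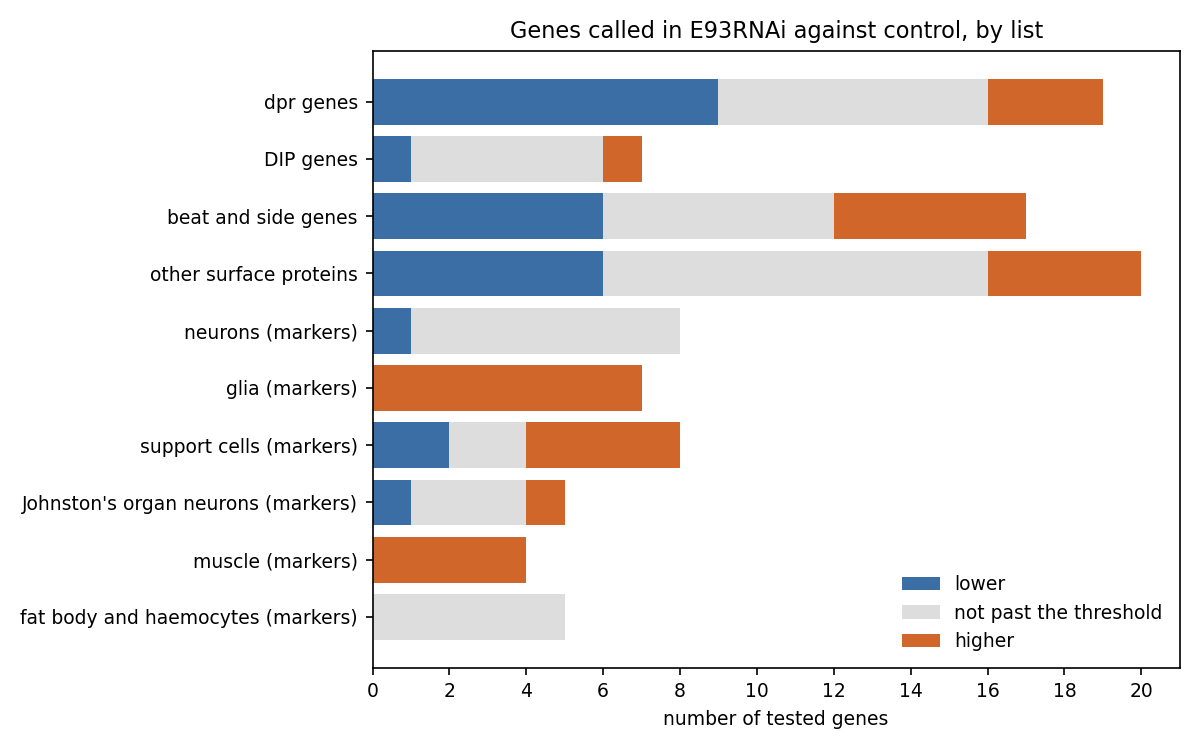
Number of tested genes that were lower, higher or not past an adjusted p of 0.05 in E93RNAi, for the dpr and DIP genes, for the related surface protein lists and for the cell type marker lists. Of 19 dpr genes 9 were lower and 3 higher, while all 7 glial and all 4 muscle markers were higher.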

How the data were processed

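The authors deposited raw read counts per FlyBase gene, 1 file per sample. The submitters' processing notes name cutadapt 1.8, STAR 2.5.3a, HTSeq 0.9.1 and the build BDGP6, with no strand setting, although per the labels' protocols the library kit keeps strand. The 5 summary lines were left out of library sizes (ambiguous reads were 1.934% to 2.041% of listed reads). Symbols came from a table that matched 17560 of 17698 identifiers, and coordinates and exon lengths from the Ensembl release 115 annotation of BDGP6. Genes were filtered by edgeR's filterByExpr (about 0.566 CPM in 3 samples), which left 9237 genes, and scaled by TMM. The quasi-likelihood test of edgeR 4.0.16 (R 4.3.3, with limma 3.58.1) was fitted to all 6 samples without covariates, with Benjamini-Hochberg adjustment and a threshold of 0.05. Standard errors were derived from the F statistic and intervals from its t distribution. Levels are CPM with TMM-adjusted library sizes, as mean ± SD, and were divided by exon length in kb where genes are compared. All members may be named, and of other lists up to 3 rises and 3 falls, *Eip93F*, markers tied to a result and *cDIP*, which was named after its values were seen. The members and lists were chosen with earlier results of these data known.

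The labels speak of pairs of replicates, and for the replicate block the numbers were taken to pair the samples. The deviations of samples with the same number correlated weakly (r = 0.150, 0.127 and 0.122 over 8103 genes). Correlations between different numbers are not given beside them, so these values do not decide the pairing. The fit with the replicate block was an alternative, as were other scalings, DESeq2 1.42.0, limma voom, other filters, a threshold of 0.01 and leaving out each sample. The fit was tested on simulated data, with 50 changed genes at each size. It recovered 24 at a log2 change of 0.25, 42 at 0.5, 47 at 1 and 47 at 2. False calls were 6 of 166. Changes near 0.25 can thus be missed. No protein or promoter sequences were used here. *hbs*, 1 of 22 listed surface protein genes, was not analysed here.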

Additional observations from a re-analysis of the deposited data

Results flagged for a closer look

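Reads left out of genes as ambiguous made up 2.023% of the listed reads on average in E93RNAi and 1.949% in control, and every E93RNAi sample was above every control sample.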

How the results depend on the processing

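The count of changed Dpr and DIP genes was 14 with each other scaling, limma voom, both other filters and the replicate block, 12 with DESeq2 and with a threshold of 0.01, and 12 to 14 when each sample was left out in turn. Over all tested genes the count was 2248, and 1711 to 2155 when each sample was left out, 2430 with the replicate block and 1482 with a threshold of 0.01, where fewer genes pass by construction. The replicate block changed no call among the members, and among the other listed genes it added *Obp83b*, *Obp19a* and *sns*. With library totals the split over all genes was 1443 higher and 812 lower, against 1274 and 974 with TMM, and among the members it stayed at 4 and 10. Of the 14 called members, 12 passed in all 14 fits that were tried besides the one reported, the exceptions being *dpr13* and *dpr18*. Values of uncalled genes near 0 changed sign. Leaving out each sample in turn gave log2 fold changes from -0.03 to 0.03 for *dpr2*, -0.05 to 0.31 for *dpr6*, -0.17 to 0.0078 for *dpr8* and -0.05 to 0.23 for *dpr21*, and upper-quartile factors gave -0.0016 for *dpr2*. The cause was not tested. At 5 to 53 counts per sample the intervals of *dpr6*, *dpr14*, *DIP-alpha* and *DIP-beta* were wide, although *DIP-lambda* and *dpr18* passed at 5 to 42 counts. The 6 members that were not tested had at most 8 counts in any sample.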
